A study of Mus musculus with 6 samples.

Results

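Fosb and Dusp18 are 2 of the 466 genes in the authors' deposited table of differences between knockout and control microglia. They were chosen there by name, with their high level among the listed genes known. Every gene of that table had passed the authors' limits on these same samples, which were a log2 fold change beyond 1 in either direction and an unadjusted p under 0.05. The knockout against control difference of both genes is therefore a description and not a test. The knockout group (Piezo1MGKO; FAD) held 3 samples of microglia from brains of male 5×FAD mice that carried Cx3cr1CreER-EYFP and Piezo1fl/fl. The control group (Piezo1fl/fl; FAD) held 3 samples from littermates with the floxed gene and 5×FAD, and no Cre allele is given for them. Tamoxifen was injected in both groups, at 20 mg/kg on 4 successive days and from 4.5 weeks of age, and the strain was given as C57BL/6N. 5×FAD mice carry transgenes for mutant human amyloid precursor protein and presenilin, and develop amyloid plaques. The inducible Cre is expressed from the Cx3cr1 locus, so it also acts in other macrophages and monocytes that use this gene. Because the Cre allele is named for the knockout only, loss of Piezo1 and presence of that allele cannot be told apart for either gene. The labels call the samples biological repetitions and do not say how many mice each came from or how old the mice were at isolation.

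Fosb encodes a member of the Fos family of leucine zipper proteins. Fos proteins pair with Jun proteins to form the transcription factor AP-1, and their genes are immediate early genes, switched on within minutes by calcium entry, growth factors, cytokines or tissue handling. Dusp18 encodes an atypical dual-specificity phosphatase. Phosphatases of this family remove phosphate from tyrosine and from serine or threonine, several of them on the MAP kinases that drive Fos and Jun, while the atypical members lack the kinase-binding part of the classical ones. Piezo1 itself is a mechanically gated cation channel that admits calcium.

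Fosb (ENSMUSG00000003545) lies on chromosome 7 at 19302696 to 19310051 on the minus strand (GRCm38), and Dusp18 (ENSMUSG00000047205) on chromosome 11 at 3895240 to 3901296 on the plus strand. GENCODE annotates 7 Fosb transcripts. The longest coding one spans 4 exons and encodes 338 residues, and others encode 302, 299, 263, 237 and 201. Alternative splicing of Fosb is known to yield a truncated protein, ΔFosB, that lacks the C-terminal end. The deposited values are per gene, so the transcript forms of Fosb were not separated. Both Dusp18 transcripts have 2 exons, and 1 of these holds the whole coding region of 188 residues. No annotated gene overlapped either one. The nearest neighbour of Dusp18 was 4921536K21Rik, which starts 142 bases away on the opposite strand, and that of Fosb was Gm26802 at 1926 bases.

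The promoters of both genes are shown because both genes were lower in the same samples. Each window runs from 250 bases before the RefSeq start to 50 after (GRCm38.p6), written 5′ to 3′ on the strand of the gene, with capitals marking the motif matches named below. The Fosb window is chr7:19309996-19310295 on the minus strand and the Dusp18 window is chr11:3894990-3895289 on the plus strand.
Fosb: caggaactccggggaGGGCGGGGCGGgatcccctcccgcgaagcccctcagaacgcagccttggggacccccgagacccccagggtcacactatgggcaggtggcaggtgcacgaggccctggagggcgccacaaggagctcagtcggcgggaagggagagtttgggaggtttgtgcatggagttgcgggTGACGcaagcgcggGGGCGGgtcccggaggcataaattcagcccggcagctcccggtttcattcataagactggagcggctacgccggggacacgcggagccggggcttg
Dusp18: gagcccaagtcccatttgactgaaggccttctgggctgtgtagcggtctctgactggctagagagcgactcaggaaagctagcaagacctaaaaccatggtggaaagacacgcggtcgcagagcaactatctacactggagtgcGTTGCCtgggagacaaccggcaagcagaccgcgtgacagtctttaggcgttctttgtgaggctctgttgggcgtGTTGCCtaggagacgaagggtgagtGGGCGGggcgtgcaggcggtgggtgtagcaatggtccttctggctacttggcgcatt

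A total of 7 motifs was searched on both strands of these windows. The Fosb window held 1 match to TGACG, the core of the cyclic AMP response element, 60 bases before the start, and 20.8% of 32851 promoter windows of the same length held one. It held 3 matches to the GC box GGGCGG, of which 2 share a base, and 10.7% of windows held at least 3. The Dusp18 window held 1 GC box, a motif found in 35.7% of windows, and 2 matches to GTTGCC, the half-site of the X-box bound by RFX factors, at 106 and 32 bases before the start. At least 2 such half-sites were present in 1.02% of windows, and this motif was added after the sequence had been read. Both half-sites lie in the 142 bases between the starts of Dusp18 and 4921536K21Rik, so they cannot be assigned to Dusp18 alone. Neither window held TGACTCA (an AP-1 site, in 5.20% of windows), TGACGTCA (the full cyclic AMP response element, in 1.79%), TATAAA (13.6%) or the CArG box of serum response factor (1.63%). GC content was 68.3% for Fosb and 57.3% for Dusp18, against a median of 52.7% over all windows. These matches describe letters only and say nothing of binding.

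The normalised reads of Fosb were 41539, 37365 and 77714 in control samples 1, 2 and 3, against 31033, 16989 and 28475 in knockout samples 1, 2 and 3. Normalised reads are read counts divided by a size factor for each sample, as deposited by the authors. Every knockout sample was below every control, but the lowest control was only 1.20-fold above the highest knockout. Control 3 stood apart within its group, at 2.08-fold the level of control 2, a span as wide as the difference between the groups. Controls averaged 52206 ± 22189 and knockouts 25499 ± 7480 (SD, n = 3 each), which is 2.05-fold lower. Without control 3 the difference was 1.55-fold, and without knockout 2, the lowest sample, it was 1.75-fold.

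The normalised reads of Dusp18 were 223, 209 and 351 in control samples 1, 2 and 3, against 144, 86.8 and 76.9 in knockout samples 1, 2 and 3. The groups again did not overlap, with the lowest control 1.46-fold above the highest knockout. Controls 1 and 2 were close to each other and control 3 was the high one, as for Fosb, while knockout 1 was the highest knockout sample for both genes. Controls averaged 261 ± 78.3 and knockouts 102 ± 36.0 (SD, n = 3 each), which is 2.55-fold lower. The difference was 2.11-fold without control 3 and 3.19-fold without knockout 1. Non-overlap with lower knockout values was shared by 211 of the 466 listed genes (45.3%), all selected on this contrast, so it does not set either gene apart.

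**Figure D1:**
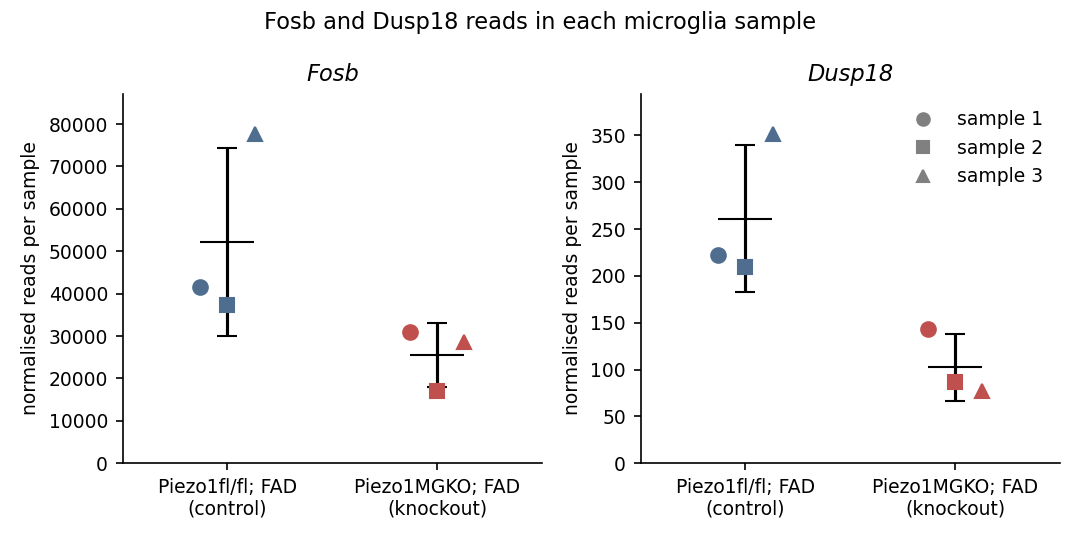
Normalised reads of Fosb (left) and Dusp18 (right) in each sample on linear axes from 0, with blue symbols for the 3 controls, red symbols for the 3 knockouts and black bars for the group mean ± SD. All knockout samples lie below all controls, control 3 is the highest sample for both genes, and the gap between groups is 1.20-fold for Fosb and 1.46-fold for Dusp18.

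Knockout minus control, the difference of group mean log2(value + 1) was -1.00 for Fosb (SE 0.35) and -1.36 for Dusp18 (SE 0.55). These standard errors come from a limma fit across all 466 genes, which draws each gene's variance toward a trend over them. The pooled SD between replicates was smaller for Dusp18 (0.44) than for Fosb (0.52), so these standard errors do not rank the genes by their own spread. In the authors' deposited table the log2 fold change was -1.03 for Fosb, with an adjusted p of 0.197, and -1.35 for Dusp18, with an adjusted p of 0.0363. By the authors' adjustment over 19107 genes Dusp18 passed 0.05 and Fosb did not. Of the 466 listed genes 14 passed it (3.00%), and Dusp18 was the last of them, followed by Sfrp1 at 0.0654 in the authors' deposited table. Fosb lay just inside the authors' limit on fold change, with 4 listed genes closer to it. No listed gene (0 of 466, 0%) passed 0.05 in the limma fit after adjustment, while the unadjusted p was under 0.05 for 245. With edgeR the number past the adjusted threshold was likewise 0, with 261 under 0.05 unadjusted, while DESeq2 on the same reads called 61 and limma with a pseudocount of 0.5 called 120. Without control 1 limma called 196, and without control 3 it called 36. Neither Fosb nor Dusp18 was among the genes called under these 4 settings.

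**Figure D2:**
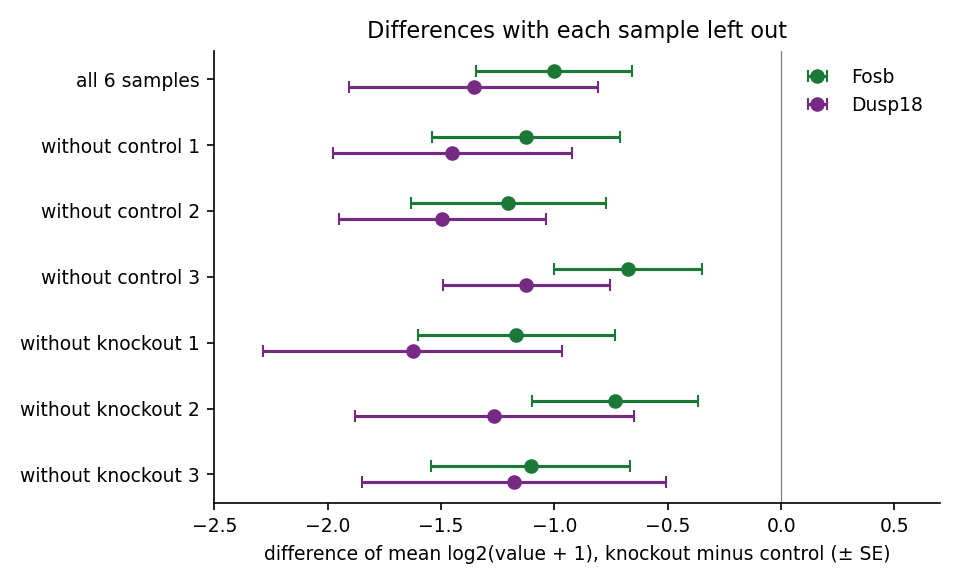
Difference of mean log2(value + 1), knockout minus control, for Fosb (green) and Dusp18 (purple) with all 6 samples and with each sample left out, as points with the limma standard error. Every estimate is below 0, which the non-overlap of the groups fixes in advance. With samples left out they lie between -1.20 and -0.68 for Fosb and between -1.62 and -1.12 for Dusp18.

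Counting error was small beside the spread between samples. Reads were recovered on the assumption that the smallest value above 0 in each sample is 1 read, for which every deposited value came out whole and the size factors were close to 1. Recovered reads of Fosb ran from 16637 in knockout 2 to 79423 in control 3. The smallest Dusp18 count was 76 reads in knockout 3 (exact 95% Poisson interval 59.9 to 95.1) and the largest 359 in control 3 (323 to 398), intervals that cover counting error only. The coefficient of variation of Dusp18 over samples was 30.0% in controls and 35.1% in the knockout, against a counting error of 11.5% of the value at its smallest count. For Fosb it was 42.5% in controls and 29.3% in the knockout, with a counting error of at most 0.775%. Over all listed genes the median coefficient of variation in controls was 81.8%. Only 43 of the 466 genes were at or below that of Dusp18 and 72 at or below that of Fosb, but the median listed gene had a mean of 10.4 normalised reads, where counting error is large.

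Both genes stood well above most of the table in level, which was known when they were chosen, so their ranks restate that choice. Fosb had the second highest mean over the 6 samples, 38852 normalised reads, and Dusp18 ranked 7 of 466 with 182. A mean of at least 100 was reached by 14 genes, of which 12 were lower in the knockout. In 4 of these 12 the groups did not overlap, namely Fosb, Dusp18, Cx3cr1 and the ribosomal protein retrogene Rps27rt. Over all listed genes this held for 211 of the 410 lower ones, so it does not set these 4 apart. Per kilobase of the deposited gene length, controls averaged 8362 ± 3554 normalised reads of Fosb and knockouts 4084 ± 1198 (SD, n = 3 each). Dusp18 was at 56.4 ± 16.9 and 22.1 ± 7.76 per kilobase (SD, n = 3 each), and its rank by this measure was 23. In each sample Fosb exceeded Dusp18 per kilobase by between 132-fold and 275-fold. The deposited length of Fosb, 6243 bases, is the union of all annotated exons and includes a retained intron, and its longest coding transcript has 3782 bases, so its level per kilobase would be higher over that transcript.

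In the order of levels per kilobase Cx3cr1, the fractalkine receptor gene at whose locus the Cre sits, was above Fosb without overlap in either group. Cx3cr1 ranged from 13001 to 17617 in controls and from 6194 to 7924 in the knockout, and Fosb from 5985 to 12448 and from 2721 to 4971. This separation depends on the deposited length of Fosb, which includes a retained intron. In normalised reads the 2 genes overlapped in both groups. Cx3cr1 was then at 58569 to 79363 in controls and 27906 to 35698 in the knockout, and Fosb at 37365 to 77714 and 16989 to 31033. Ttr, the transthyretin gene of choroid plexus and next below Fosb, overlapped with it in controls, where it spanned 218 to 15235 per kilobase, and was below it in the knockout at 461 to 1604. Zfp503, a zinc finger gene next above Dusp18 by reads, was at 25.1 to 38.9 per kilobase in controls and 49.4 to 112 in the knockout, and Dusp18 at 45.2 to 75.8 and 16.6 to 31.0. The order of these 2 genes was thus opposite in the 2 groups. Pcolce, a procollagen processing enhancer gene next below Dusp18 by reads, overlapped with it in both groups at 20.5 to 130 and 19.0 to 24.8.

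**Figure D3:**
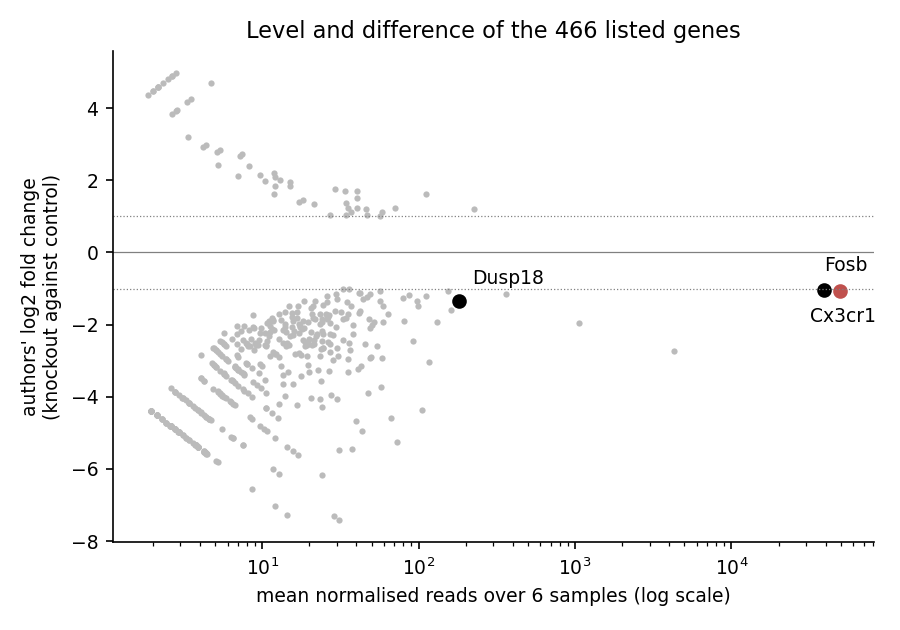
Mean normalised reads over the 6 samples (log scale) against the authors' log2 fold change for the 466 listed genes (grey), with Fosb and Dusp18 in black and Cx3cr1 in red, and dotted lines at the authors' limit of 1 in each direction. Fosb lies beside Cx3cr1 at the right end and close to the limit, and Dusp18 is to the right of most listed genes.

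Fosb and Cx3cr1 differed between the groups by nearly the same factor, 2.05-fold and 2.08-fold. The ratio of Fosb to Cx3cr1 reads was 0.709, 0.608 and 0.979 in control samples 1, 2 and 3, against 0.967, 0.609 and 0.798 in knockout samples 1, 2 and 3. The groups overlapped fully in this ratio, with means of 0.766 ± 0.192 in controls and 0.791 ± 0.179 in the knockout (SD, n = 3 each). Dusp18 had 5.36, 5.61 and 4.52 reads per 1000 Fosb reads in control samples 1, 2 and 3, against 4.63, 5.11 and 2.70 in the knockout samples. These groups overlapped too, and knockout 3 was the low one, where Dusp18 was at its lowest while Fosb was not. Per 1000 Cx3cr1 reads, Dusp18 had 3.80, 3.41 and 4.43 in the control samples, against 4.47, 3.11 and 2.15 in the knockout samples, also overlapping. The level of Cx3cr1 is itself a selected difference of this table, and its locus carries the Cre allele named for the knockout only. The part of that allele in the Cx3cr1 level was not tested. These ratios therefore describe the 3 transcripts relative to each other within each sample and are no scaling of the samples.

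**Figure D4:**
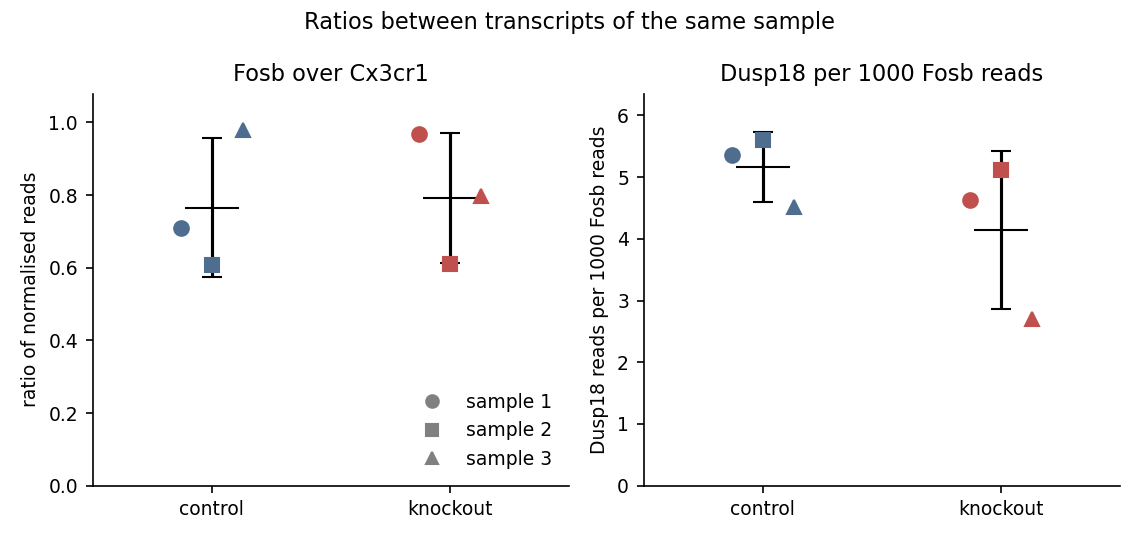
Ratio of Fosb to Cx3cr1 reads (left) and Dusp18 reads per 1000 Fosb reads (right) in each control (blue) and knockout (red) sample, with black bars for the group mean ± SD. The Fosb to Cx3cr1 ratio spans 0.608 to 0.979 in controls and 0.609 to 0.967 in the knockout, and Dusp18 per 1000 Fosb reads overlaps between groups with knockout 3 lowest.

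The listed genes whose profile was most like each member were ranked by the root mean square difference of log2(value + 1) over the 6 samples, after each gene was centred on its own mean. Candidates were the protein-coding genes with a mean of at least 10 normalised reads. For Fosb the nearest was Crip2, a LIM domain protein gene, at 0.24, followed by Cx3cr1 (0.28), Dusp18 (0.35), the nuclear lamina gene Lmna (0.37) and the actin-severing gene Gsn (0.39), against a median of 1.34 over 217 candidates. For Dusp18 the nearest was again Crip2, at 0.23, followed by Fosb (0.35), Cx3cr1 (0.35), the protocadherin gene Pcdh1 (0.41) and the profilin gene Pfn2 (0.47), against a median of 1.17. The normalised reads of Crip2 were 50.0, 61.1 and 85.1 in control samples 1, 2 and 3, against 39.3, 18.4 and 26.3 in the knockout samples. It shares with Fosb the highest sample, control 3, and the lowest, knockout 2. All genes of this ranking were selected for a difference between these groups and come from the same 6 libraries, and most were lower by more than either member, with a median authors' log2 fold change of -3.10 over the 410 lower genes.

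**Figure D5:**
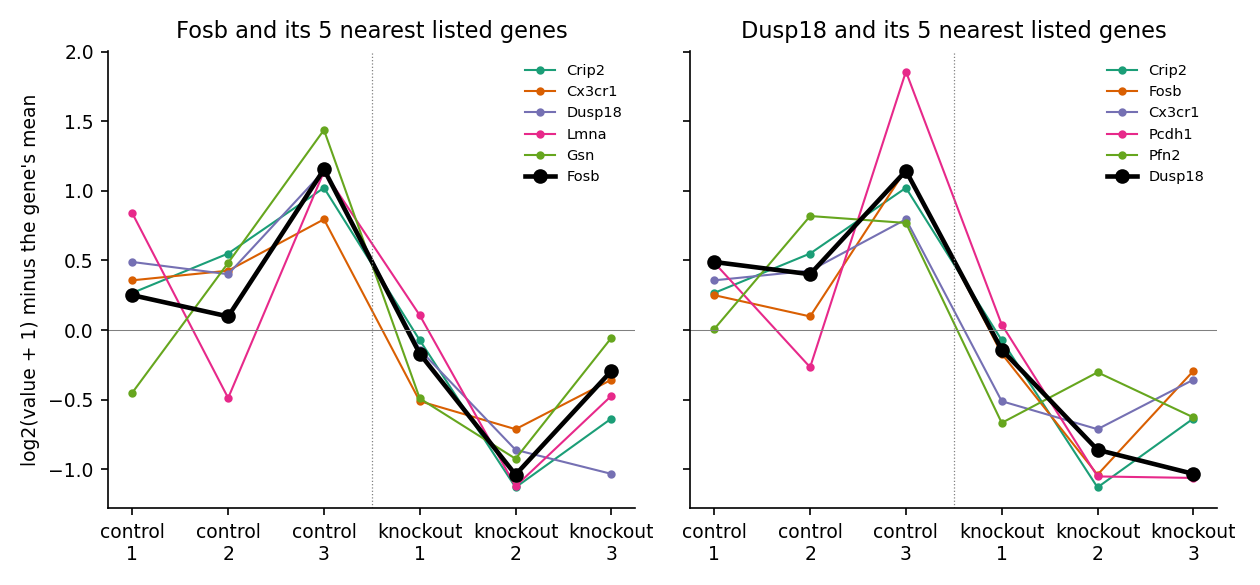
Centred log2(value + 1) of Fosb (left, black) and Dusp18 (right, black) and of the 5 listed genes nearest to each (coloured) in the 6 samples, where lines join the values of 1 gene. Control 3 is the highest sample for both members, and knockout 2 is the lowest for Fosb and knockout 3 for Dusp18.

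Other genes of the pathways around both members were looked up in the table, which lists 466 of the 19107 genes that the authors' adjustment covers (2.44%). The listed share of the 6 pathway lists below was 2.78% to 6.45%, the members included, and genes outside the table were not analysed here. Of all 466 listed genes 410 were lower, and 211 (45.3%) were lower without overlap. Neither trait therefore sets the pathway genes below apart. Of 19 AP-1 family genes Fosb was the one listed. Its relatives Fos, Fosl2, Jun, Junb and Jund were not listed, and their levels were not analysed here. Of 44 immediate early genes 2 were listed, both lower, Fosb and the secreted matricellular gene Cyr61. The normalised reads of Cyr61 were 7.85, 11.6 and 114 in control samples 1, 2 and 3, against 15.7, 7.15 and 1.01 in the knockout samples, so its groups overlapped and control 3 alone was high. Of 31 dual-specificity phosphatase genes 2 were listed, both lower and without overlap, Dusp18 and Dusp14, another atypical member. For Dusp14 the values were 0.981, 6.79 and 7.83 in control samples 1, 2 and 3, with no read in any knockout sample, which is a difference at the edge of detection. Of these 4 genes only Dusp18 passed the authors' adjusted p.

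Of 72 genes of the MAP kinase cascade, Mapk4, an atypical MAP kinase gene, and Spry2, an inhibitor of receptor tyrosine kinase signalling, were listed, both lower with overlapping groups. For Mapk4 the values were 19.6, 139 and 2.94 in control samples 1, 2 and 3, against 14.7, 5.11 and 2.02 in the knockout samples. Spry2 was highest in control 3, at 31.3, against 1.96 and 4.85 in controls 1 and 2. Of 49 genes from calcium entry to CREB, the ryanodine receptor gene Ryr2 and the calcineurin-regulated factor gene Nfatc4 were listed as lower. Controls averaged 9.10 ± 2.40 normalised reads of Ryr2 and knockouts 1.02 ± 1.77, without overlap (SD, n = 3 each). For Nfatc4 these means were 16.6 ± 23.1 and 0.681 ± 1.18, with overlap (SD, n = 3 each). Of 30 AP-1 target genes, the metalloproteinase inhibitor gene Timp1 was listed as lower, averaging 14.7 ± 22.1 in controls and 0.340 ± 0.590 in the knockout (SD, n = 3 each), with 40.1 normalised reads in control 3. None of these 5 genes passed the authors' adjusted p. Their control means ran from 9.10 normalised reads for Ryr2 to 53.7 for Mapk4, below that of Dusp18 (261).

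Of 20 microglia markers Cx3cr1 was the one listed, and the others, P2ry12, Tmem119 and Csf1r among them, were not analysed here. As the table holds only genes selected for a difference, the labelled cell type could not be checked with it. In these bulk samples fewer cells of a type and less RNA per cell cannot be told apart. For Cx3cr1 the Cre allele at its own locus, named for the knockout only, cannot be told apart from these either. Markers of other cell types were listed too, and their counts stand beside the 2.44% of all covered genes that were listed. Their directions stand beside the 410 of 466 listed genes that were lower. Of 25 neuron markers 12 were listed, all lower, and their summed level was 172, 467 and 1034 normalised reads in control samples 1, 2 and 3, against 102, 143 and 25.3 in the knockout samples, so control 3 was highest here as for Fosb and Dusp18. Choroid plexus and ependymal markers (7 of 12 listed) summed to between 362 and 19196 in controls and between 590 and 2034 in the knockout, highest in control 2 and lowest in control 3. The remaining lists had 2 of 12 astrocyte, 0 of 12 oligodendrocyte, 1 of 12 endothelial, 2 of 14 mural and fibroblast, 2 of 12 border macrophage and 2 of 23 other blood cell markers listed. Summed levels were 9.81 to 59.2 in controls and 3.04 to 16.3 in the knockout for astrocyte markers, 62.6 to 204 and 33.4 to 62.9 for Pltp (the endothelial one), and 104 to 386 and 32.7 to 73.7 for mural and fibroblast markers. They were 28.5 to 268 and 0 to 28.6 for the globin genes of the blood list, which were at 0 in knockout 1. The border macrophage markers summed to 11.8 to 14.7 and 5.11 to 11.1, but went in opposite directions, with Cd209a lower (4.02 ± 1.00 in the knockout, 13.3 ± 1.42 in controls) and Clec4n higher (5.00 ± 2.59 and 0.326 ± 0.565, SD, n = 3 each). No listed marker was at 0 in all knockout samples. The part of these cells in the levels of Fosb and Dusp18 was not tested. In control 3 the summed neuron markers amounted to 1034 normalised reads beside 77714 of Fosb and 351 of Dusp18. Of the 410 listed genes that were lower, 224 were highest among controls in control 3, 173 in control 2 and 13 in control 1. The order shared by both members, control 3 above control 1 above control 2, was found in 60 of the 410. Reads recovered in the listed genes ranged from 49643 to 180760 per sample, while the recovered size factors lay between 0.979 and 1.03. These sums cover selected genes, and library depth is unknown here. Fosb made up 27.8% to 44.3% of the listed reads and Cx3cr1 44.9% to 55.0%, so the sums mostly restate these genes.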

How the data were processed

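Libraries from poly(A) RNA of isolated microglia were read as pairs of 150 bases, per the labels' protocols. The submitters' processing notes list RSEM 1.2.30, HISAT2, cutadapt 1.11, DESeq2, R 3.6.1 and the GRCm38 build, without roles. The deposited table gives normalised read counts (a signal value) per gene and sample, the authors' log2 fold change, and the authors' p-value and adjusted p-value. Taking the smallest value above 0 in each sample as 1 read, all values (100%) were whole at a tolerance of 1e-06, with size factors of 0.979 to 1.03. Groups came from the sample titles. As these values are normalised, limma 3.58.1 (R 4.3.3) with a mean-variance trend was fitted to log2(value + 1) of all 466 genes, without a filter. edgeR 4.0.16 and DESeq2 1.42.0 on recovered reads, other pseudocounts, a filter, ratios of group means or medians, unscaled reads, left-out samples and a replicate block were alternatives. All 3 tools were first run on simulated reads, with the same spread setting for every gene and no selection on the contrast. That run therefore does not bear on the differing numbers of genes called here. The spread behind each SE and p is that of these samples, and it may be technical. In limma it is also drawn toward a trend over the 466 selected genes.

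The members and gene lists were chosen with earlier results of these data known. Named genes were the members, Cx3cr1, the 5 nearest protein-coding genes by profile, the genes next in level, and every listed gene of 6 pathway lists. Annotation was GENCODE (GRCm38), and promoters were RefSeq's (GRCm38.p6), matched for 2 of 2 members by symbol. Motif TGACG also lies inside TGACGTCA. Strand use in counting is not stated in the labels.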

Additional observations from a re-analysis of the deposited data

How the results depend on the processing

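The differences of Fosb and Dusp18 kept their direction under each of the 12 alternatives per gene. As no knockout value reached any control value, none of these alternatives could have reversed it. The differences moved by less than 1 SD between replicates (0.52 and 0.44 on the log2 scale). With 1 sample left out at a time the log2 difference ranged from -1.20 to -0.68 for Fosb and from -1.62 to -1.12 for Dusp18. The log2 ratio of the group medians moved Fosb most, to -0.54, and gave -1.36 for Dusp18. With the replicate block the log2 difference was the same by construction, -1.00 for Fosb (SE 0.22) and -1.36 for Dusp18 (SE 0.70). Deviations of same-numbered samples over the 466 genes correlated at -0.04, -0.04 and 0.07 for numbers 1, 2 and 3. The differently numbered control 2 and knockout 1 reached 0.27. With 3 samples per group and selected genes, these correlations cannot decide whether same-numbered samples were paired, and the labels give no pairing. The ratio comparisons were added after the data were examined. With samples left out, the log2 difference of Fosb over Cx3cr1 ranged from -0.11 to 0.24 around 0.05, that of Dusp18 over Cx3cr1 from -0.58 to -0.05 and that of Dusp18 over Fosb from -0.54 to -0.08.

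The number of listed genes called at an adjusted p of 0.05, which was 0 with limma, was 120 with a pseudocount of 0.5, 4 with the replicate block, 1 among 236 genes with a mean of at least 10, and 61 with DESeq2. It ranged from 0 to 196 with 1 sample left out, reaching 196 without control 1 and 36 without control 3. Fosb was among the 4 called with the block, and neither gene was called under the other settings. The cause was not tested. These genes were selected on the same samples, and no count is evidence of a difference. Depth is unknown, and Dusp18 rests on 76 to 359 reads per sample.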

Other observations

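Of the annotated genes within 20 kb of Fosb, the reticulon gene Rtn2, 6536 bases away on the opposite strand, was also in the deposited table. Its normalised reads were 5.89, 28.1 and 42.1 in control samples 1, 2 and 3, against 6.88, 7.15 and 10.1 in the knockout samples, so the groups overlapped through control 1. The lincRNA genes Gm26802 and D830036C21Rik in the same window were not analysed here, nor were 4921536K21Rik, Slc35e4 and Tcn2 within 20 kb of Dusp18.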
